A study of Mus musculus and Rattus norvegicus with 53 samples.

Results

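The genes described here are the transforming growth factor β (TGFβ) ligands Tgfb1, Tgfb2 and Tgfb3, the receptors Tgfbr1, Tgfbr2 and Tgfbr3, and the latent TGFβ binding proteins Ltbp1, Ltbp2, Ltbp3 and Ltbp4. They were chosen by symbol, and these 10 genes are 10 of the 24016 genes listed in the mouse count files. All were measured in Schwann cells (SCs) sorted by FACS for tdTomato from mouse sciatic nerve, in RNA-seq libraries made by a Smart-seq2 protocol. The tdTom-SC mice, male and female, carried a Cre transgene active in the SC lineage, both myelinating and nonmyelinating, and a Rosa26 tdTomato reporter, and were 6 to 8 weeks old when 1 sciatic nerve was transected. Every mouse used here carried both alleles and had been operated on, since intact SCs (iSCs) came from the contralateral, uncut nerve. Distal stump SCs (dSCs) came from the nerve beyond the cut, and bridge SCs (bSCs) from the new tissue that joins the stumps. In the pooled experiment each library held the nerves of 3 mice collected on day 6, with 4 libraries each of iSCs, dSCs and bSCs. In the single-nerve experiment each library held 1 nerve, with 5 libraries of iSCs, 3 of dSCs on each of days 1 and 2, and 3 each of dSCs and bSCs on each of days 4, 6, 8 and 10.

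TGFβ is secreted in a latent form, in which the mature dimer is held by its own propeptide. The propeptide can be bonded to a latent TGFβ binding protein, which deposits the complex in the extracellular matrix. Integrins, proteases and thrombospondin release the ligand, which binds TGFBR2. TGFBR2 then recruits and phosphorylates the kinase TGFBR1, which phosphorylates SMAD2 and SMAD3, while TGFBR3 (betaglycan) is a co-receptor that presents ligand, TGFβ2 in particular. SCs are known both to make and to respond to TGFβ during nerve development and after injury.

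The ligands differ at the site in the propeptide by which αv integrins pull the latent complex open, an arginine-glycine-aspartate motif. The coding stretch around that site is shown because the ligand with the best known integrin site, Tgfb1, and the ligands that carried most ligand reads in these cells, Tgfb3 and Tgfb2, are not alike there. Capitals mark the 3 codons of the motif, or the codons aligned with them, in coding sequence of GENCODE M1 on the genome build NCBIM37 (mm9), written 5′ to 3′ along the transcript.
Tgfb1: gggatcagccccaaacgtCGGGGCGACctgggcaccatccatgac
Tgfb3: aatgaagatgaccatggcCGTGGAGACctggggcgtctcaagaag
Tgfb2: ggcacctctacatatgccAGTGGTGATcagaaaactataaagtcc
The Tgfb1 stretch is coding bases 712 to 756, on the plus strand between 26482014 and 26482187 of chromosome 7, where its first base ends exon 4 and the others lie in exon 5. The Tgfb3 stretch is coding bases 763 to 807 in exon 5, on the minus strand at chr12:87403097-87403141. The Tgfb2 stretch is also coding bases 763 to 807 in exon 5, on the minus strand at chr1:188454614-188454658, and its capitals do not spell the motif, which was found nowhere in its coding sequence. Translated and aligned, Tgfb2 and Tgfb3 shared 78.6% of the residues of the mature ligand, against 72.3% for Tgfb1 and Tgfb2 and 77.7% for Tgfb1 and Tgfb3.

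All 10 genes were on autosomes of NCBIM37. The ligand genes spanned chr7:26472021-26490096 for Tgfb1, chr1:188447065-188529871 for Tgfb2 and chr12:87397694-87419991 for Tgfb3. The receptor genes spanned chr4:47366094-47427803 for Tgfbr1, chr9:115993415-116084383 for Tgfbr2 and chr5:107535589-107718648 for Tgfbr3. Ltbp1 spanned chr17:75404908-75791852, Ltbp2 chr12:86124162-86217482, Ltbp3 chr19:5740904-5758532 and Ltbp4 chr7:28090155-28122711. The antisense gene D030025P21Rik shares an exon stretch of 764 bases with Ltbp2. Whether reads over that stretch entered the counts of Ltbp2 was not tested.

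Libraries held 11435463 to 22617054 counts on genes in the pooled experiment and 9240883 to 22426128 in the single nerves. Of the single-nerve libraries 4 had few genes detected, 10042 to 11138 against up to 15815 elsewhere, and stood apart in several members, namely iSC replicates 0 and 1, the day-1 dSC replicate 1 and the day-2 dSC replicate 0. Values without them are given where they end or make a call of a member, of a gene listed as a TGFβ target, or of Eng or Acvrl1. Levels are library-size-normalised counts (CPM) scaled by TMM within each experiment, and differences are log2 fold changes from edgeR's quasi-likelihood test. Their standard error (SE) was computed as the absolute log2 fold change divided by the square root of the test's F statistic. Adjusted p-values are Benjamini-Hochberg values over all genes tested, 13751 in the pooled and 15519 in the single-nerve libraries, and a gene is called at an adjusted p under 0.05. All 10 members passed the filter on low counts in both experiments. The labelled cell type was checked against 10 SC markers, whose summed level was 5135 to 12210 CPM in pooled iSCs, 1440 to 3401 CPM in dSCs and 1505 to 3003 CPM in bSCs, with no marker at 0 in a whole group. In the single nerves this sum was 1253 to 5301 CPM in iSCs, 816 to 3226 CPM in dSCs and 197 to 3716 CPM in bSCs, the lowest being a day-4 library. Transcripts of other cells were present as well. The 13 macrophage markers summed to 259 to 6349 CPM in pooled iSCs, 10850 to 17960 CPM in dSCs and 2621 to 8396 CPM in bSCs, none of them at 0 in a whole group, and in the single nerves to 305 to 1386, 2658 to 14100 and 1064 to 14830 CPM. The 9 fibroblast markers, including collagens that SCs can also express, summed to 6428 to 35390 CPM in iSCs, 25260 to 35380 CPM in dSCs and 18370 to 32910 CPM in bSCs of the pools. Single-nerve bSCs reached further, at 14850 to 55440 CPM for these 9 genes against 5097 to 40210 CPM in dSCs and 6878 to 18510 CPM in iSCs. Fewer cells of a type and less RNA per cell cannot be told apart in such libraries.

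Tgfb3 was the main ligand transcript, and Tgfb1 was low in most libraries. Per kilobase of exon, Tgfb3 exceeded Tgfb2 in 12 of 12 pooled libraries and in 32 of 35 single-nerve libraries, and Tgfb1 made up a median of 0.377% of the ligand level in the pooled and 0.519% in the single-nerve libraries, with a highest share of 19.2% and 16.2%. In pooled iSCs Tgfb3 took 82.3% ± 2.13 (SD, n = 4) of the summed ligand level per length, Tgfb2 16.5% ± 3.05 and Tgfb1 1.20% ± 2.20. In dSCs the shares were 67.3% ± 17.98, 25.2% ± 14.8 and 7.49% ± 8.88, and in bSCs 66.4% ± 13.2, 31.4% ± 14.1 and 2.26% ± 3.88 (SD, n = 4 each). The summed level itself was 22.4 ± 6.23 CPM per kilobase in iSCs, 20.8 ± 6.17 in dSCs and 56.7 ± 18.9 in bSCs (SD, n = 4 each). The bSC libraries lay above every iSC and dSC library in this sum.

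**Figure D1:**
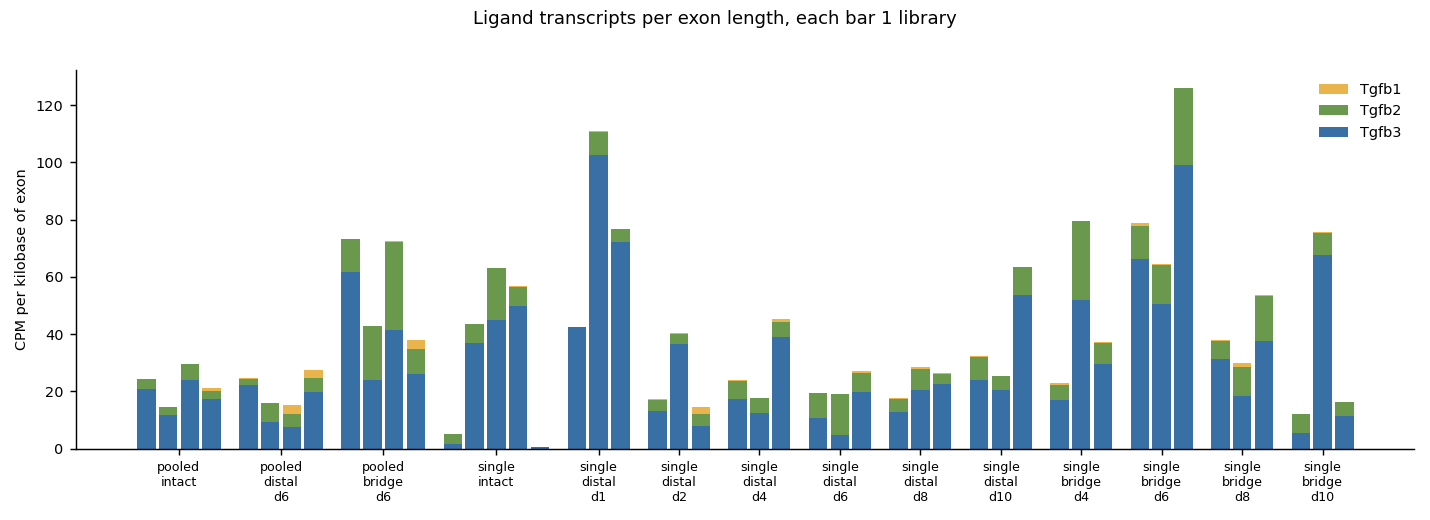
Level of the 3 ligand transcripts per exon length (y axis, CPM per kilobase) in each library (1 stacked bar), grouped by experiment, nerve region and day. Tgfb3 fills most of nearly every bar, and the summed level averaged 56.7 CPM per kilobase in pooled bSCs against 22.4 in pooled iSCs.

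Tgfb1 encodes the ligand that platelets and macrophages are best known to release. Its level in pooled iSCs was 0, 0, 0.227 and 2.42 CPM in pools 1, 2, 4 and 5. In dSCs it was 0.765, 0, 6.72 and 7.38 CPM in pools 1, 2, 3 and 5, and in bSCs 0.448, 0.293, 7.82 and 0.839 CPM. The groups overlapped, and no library held more than 99 reads of the gene. Where it had no read, a floor of 3 counts allows up to 0.153 to 0.234 CPM in the pooled libraries. Across the single nerves it lay between 0 and 5.98 CPM with a median of 0.518 CPM, and 4 of 35 libraries had no read. These levels were measured in libraries that did hold macrophage transcripts, while 2 of 4 platelet markers, Ppbp and Gp9, were at 0 in every pooled library. The 4 platelet markers together summed to 21.1 to 334 CPM in pooled iSCs, 83.6 to 245 CPM in dSCs and 20.6 to 106 CPM in bSCs. In the single nerves only Gp9 was at 0 in a whole region. There the sum was 12.8 to 113 CPM in iSCs, 7.93 to 1376 CPM in dSCs and 6.02 to 340 CPM in bSCs. The highest sum and the highest Tgfb1 value were both in day-2 dSCs. The part of either cell type was not tested.

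Tgfb2 was higher in pooled bSCs than in iSCs and dSCs. It was at 17.3, 14.0, 26.1 and 13.4 CPM in iSC pools 1, 2, 4 and 5, at 9.95, 32.9, 24.8 and 23.0 CPM in dSC pools 1, 2, 3 and 5, and at 55.7, 92.0, 42.7 and 149 CPM in the bSC pools with the same numbers as the dSC pools. Every bSC library lay above every library of the other 2 groups, and the iSC and dSC ranges overlapped. Against iSCs the log2 fold change was 2.26 (SE 0.48, adjusted p = 0.00739 by edgeR). Against dSCs it was 1.90 (SE 0.48, adjusted p = 0.0369 by edgeR), and the bridge exceeded the distal stump in 4 of 4 pairs of libraries with the same pool number. With the pool number as a block, since the labels give pools of one number the same animal number, the second difference was 1.85 with an adjusted p of 0.0990 and was no longer called. It also missed the threshold without bSC pool 2 or 5, or without any single one of dSC pools 1, 2, 3 and 5, with log2 fold changes of 1.49 to 2.14 and adjusted p-values from the threshold itself to 0.117. The macrophage marker sum lay higher in every pooled dSC library than in every bSC library, and its part in this difference was not tested.

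Tgfb3 encodes the ligand known for scar-poor repair in other tissues. In the pooled iSCs it was at 69.9, 39.8, 81.6 and 58.6 CPM, in dSCs at 75.6, 31.5, 66.5 and 25.1 CPM, and in bSCs at 209, 80.8, 87.9 and 140 CPM, in the pool order given for Tgfb2. The bSC libraries lay above all dSC libraries and overlapped the iSC range only at its top, where iSC pool 4 (81.6 CPM) exceeded bSC pool 2 (80.8 CPM). The log2 fold change was 1.05 (SE 0.42, adjusted p = 0.110 by edgeR) against iSCs and 1.38 (SE 0.42, adjusted p = 0.0716 by edgeR) against dSCs, so neither difference was called. Within pool numbers the bridge exceeded the distal stump in 4 of 4 pooled pairs, by a median of 1.41 on the log2 scale.

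**Figure D2:**
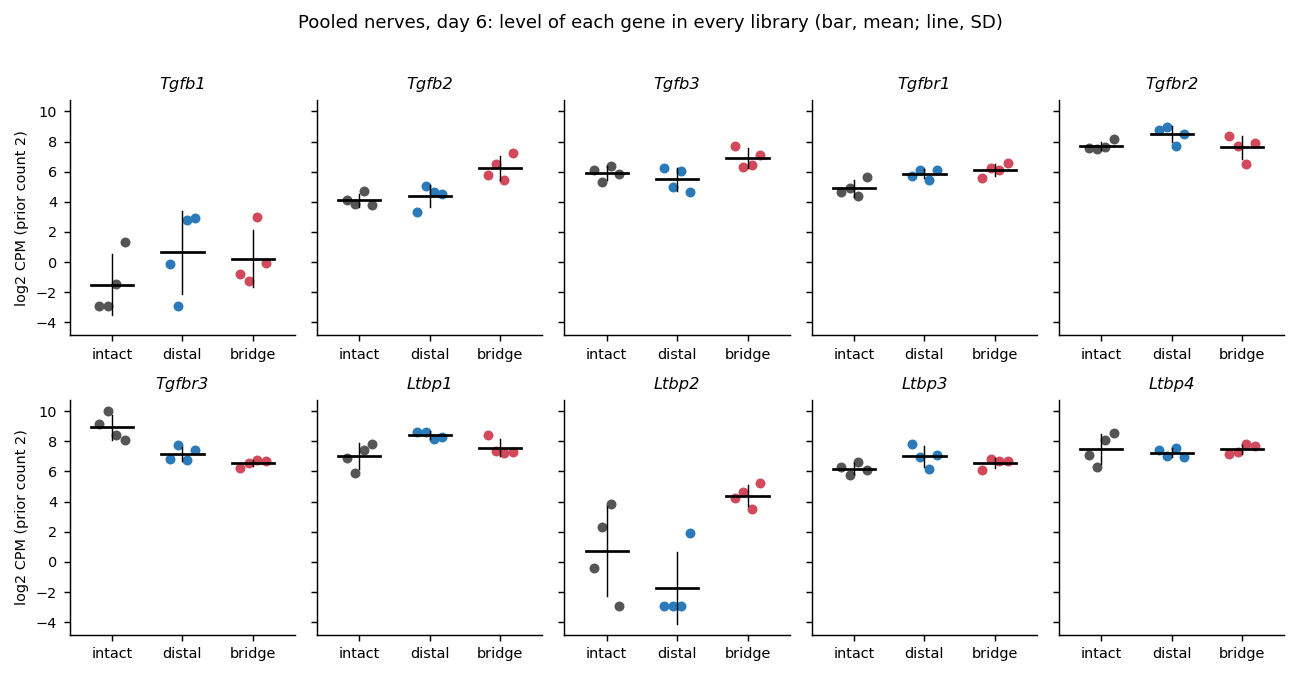
Level of each of the 10 genes (y axis, log2 CPM with a prior count of 2) in the 4 pooled libraries each of iSCs, dSCs and bSCs (points), with the group mean (bar) and SD (line). Tgfb2 in bSCs and Tgfbr3 in iSCs stand clear of the other 2 groups, and Ltbp2 has 3 dSC libraries with no read.

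The single nerves gave the same ligands at 10 further combinations of region and day. Tgfb2 reached its highest mean in bSCs of day 6, at 129, 56.1 and 66.9 CPM, against 32.5, 43.5 and 70.1 CPM in dSCs of that day. The ranges overlapped. Tgfb3 was at 336, 224 and 170.5 CPM in bSCs of day 6 and at 67.0, 35.6 and 15.6 CPM in the dSCs of the same 3 mice. Here the ranges were apart, and the paired differences were 2.32, 2.65 and 3.44 on the log2 scale. On day 4 the pairs of Tgfb3 were 99.8 against 132, 57.3 against 58.3 and 176 against 42.6 CPM, on day 8 they were 127 against 77.0, 106 against 43.3 and 62.4 against 69.8 CPM (bridge first), and on day 10 a pair was at 228.5 against 69.6 CPM. A second day-10 pair, in which the title of the bridge library disagrees with its animal number, went the other way, at 38.9 against 182 CPM. The day-6 contrast was of one direction, while on days 4, 8 and 10 only some pairs shared it. Tgfb3 was also high in dSCs on day 1, at 244, 143 and 347 CPM, and lower on day 2, at 26.6, 124 and 45.0 CPM, with the day-1 range above all of the day-2 libraries. The 5 iSC libraries were at 1.95, 5.74, 169, 125 and 152 CPM, the low 2 being those with few genes detected, and the day-1 dSC value of 143 CPM came from another such library. The other day-1 values lay above the 3 other iSC libraries, and without the libraries of few genes the log2 fold change was 1.03 (SE 0.74, adjusted p = 1.00 by edgeR).

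Averaged over days 4 to 10, Tgfb3 was 0.89 higher on the log2 scale in bSCs than in dSCs (SE 0.48, adjusted p = 0.638 by edgeR). With the mouse as a block, over the 20 libraries of the 10 mice that gave both regions, the difference was 1.38 (SE 0.30, adjusted p = 0.0362 by edgeR), and Tgfb3 was the only member called in a test that called 1.46% of 16190 genes. This call rested on the choice of pairs. With the day-10 pair of disagreeing title and animal number kept, over 22 libraries of 11 mice, the difference was 0.89 (SE 0.36, adjusted p = 0.343 by edgeR) and was not called. Without each of the 10 mice in turn it was 1.20 to 1.51, with adjusted p-values of 0.0273 to 0.1725, and was called in 5 of 10 fits. The pair left after dropping the uncertain one was the only one of day 10, and without it, averaged over days 4 to 8, the test called 0 genes. The bridge was higher in 7 of 10 pairs, or 7 of 11 with the uncertain pair. In the same blocked fit Tgfb2 differed by 0.82 (SE 0.37, adjusted p = 0.305 by edgeR) and was higher in 8 of 10 pairs, or 8 of 11. A variation of the Tgfb3 difference between days was not called in the blocked fit (adjusted p = 0.509 by edgeR). On day 6 the fibroblast markers summed to 43410 to 54100 CPM in bSCs and 20230 to 31890 CPM in dSCs, so that they separated the groups as Tgfb3 did, and their part in the difference was not tested. In the pooled libraries of day 6 the fibroblast sums of bSCs and dSCs overlapped.

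**Figure D3:**
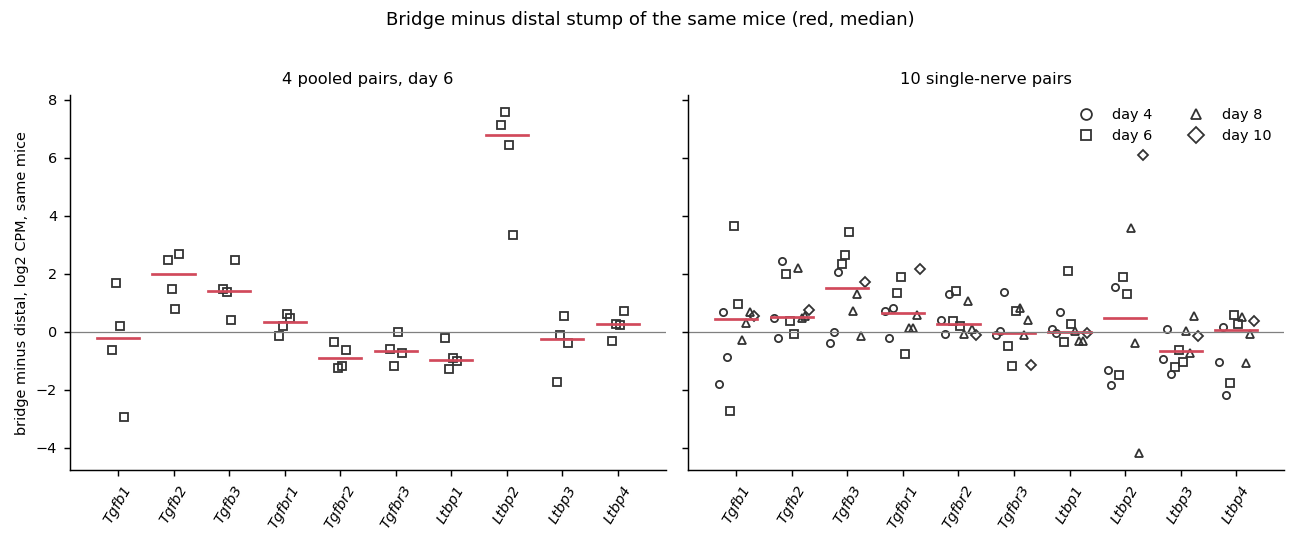
Difference between bridge and distal stump of the same mice by label (y axis, log2 CPM) for each gene (x axis) in the 4 pooled pairs and 10 single-nerve pairs, the day-10 pair of uncertain animal left out, with symbols by day and the median in red. Tgfb2 and Tgfb3 are above 0 in 4 of 4 pooled pairs and in 8 and 7 of 10 single-nerve pairs. Among the single-nerve pairs of Tgfb3, the 3 of day 6 lie highest, between 2.32 and 3.44.

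Among the receptors in the pooled nerves, Tgfbr3 was called lower in both injured regions than in iSCs, and Tgfbr2 was not called. Tgfbr1 was called higher in bSCs than in iSCs, but not between bSCs and dSCs. Tgfbr3, which encodes betaglycan, was at 556, 1045, 350 and 278 CPM in pooled iSCs, at 113, 214, 107 and 170 CPM in dSCs and at 75.3, 94.6, 106 and 101 CPM in bSCs. The 3 groups did not overlap at any point, in the order iSCs, dSCs, bSCs. Against iSCs, Tgfbr3 fell by 1.88 on the log2 scale in dSCs (SE 0.39, adjusted p = 0.0142 by edgeR) and by 2.56 in bSCs (SE 0.40, adjusted p = 0.00108 by edgeR). The difference between bSCs and dSCs was -0.68 (SE 0.38, adjusted p = 0.328 by edgeR). Both calls against iSCs held under each of the 6 other settings and without any 1 library of the 2 groups compared, with adjusted p-values up to 0.0495, reached by dSCs without 1 library. The SC marker sum was also lower in every injured library than in every iSC library, as was the sum of 5 markers of perineurial cells, the sheath around nerve fascicles, at 800 to 1091 CPM in iSCs, 197 to 682 CPM in dSCs and 256 to 458 CPM in bSCs. Their part in these differences was not tested.

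In single-nerve iSCs Tgfbr3 was at 97.9, 184, 438, 613 and 378 CPM, and the lowest 2 of these were again the libraries with few genes detected. The 18 dSC libraries lay between 50.0 and 262 CPM and the 12 bSC libraries between 73.4 and 426 CPM. On day 4 the dSCs were at 106, 139 and 58.8 CPM, with a log2 fold change of -1.76 from iSCs (SE 0.58, adjusted p = 0.114 by edgeR). Without the 4 libraries of few genes this was -2.16 (SE 0.51, adjusted p = 0.0195 by edgeR), and in bSCs of day 4 it was -1.82 (SE 0.50, adjusted p = 0.0475 by edgeR). All 10 injured groups had a negative fold change of Tgfbr3 against iSCs, from -0.50 in bSCs of day 8 to -1.76 in dSCs of day 4, against the same iSC libraries. Perineurial markers again did not overlap, at 900 to 2483 CPM in iSCs and 151 to 853 CPM in all injured libraries. The 8 endothelial markers summed to 1571 to 6445 CPM in iSCs, 412 to 777 CPM in day-4 dSCs and 451 to 727 CPM in day-4 bSCs. The part of either cell type was not tested.

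Tgfbr1, the signalling kinase, was at 25.3, 29.9, 20.4 and 49.8 CPM in pooled iSCs, at 53.6, 67.7, 44.2 and 68.3 CPM in dSCs and at 48.7, 76.8, 67.8 and 94.7 CPM in bSCs. It was higher in bSCs than in iSCs by 1.20 on the log2 scale (SE 0.34, adjusted p = 0.0319 by edgeR), although iSC pool 5 (49.8 CPM) lay above bSC pool 1 (48.7 CPM). The call was lost with the pool number as a block, at 1.13 and an adjusted p of 0.0871. It was also lost without iSC pool 1, 2 or 4 or bSC pool 2 or 5, at 1.02 to 1.21 with adjusted p-values of 0.0704 to 0.0957. In dSCs the log2 fold change was 0.90 (SE 0.34, adjusted p = 0.176 by edgeR), which became 1.24 with an adjusted p of 0.0395 without iSC pool 5. Between bSCs and dSCs it was 0.30 (SE 0.34, adjusted p = 0.675 by edgeR). In the single nerves Tgfbr1 ranged from 1.35 CPM, in the day-2 dSC library with few genes, to 254 CPM in a day-6 bSC library, and the blocked difference between bridge and distal stump was 0.90 (SE 0.30, adjusted p = 0.144 by edgeR).

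Tgfbr2, the ligand-binding kinase, was among the more abundant members per length. Pooled iSCs held 193, 184, 197 and 281 CPM, dSCs 428, 491, 211 and 361 CPM and bSCs 332, 206, 92.3 and 235 CPM. The dSC libraries exceeded the bSC libraries in 4 of 4 pairs, with a difference of -0.79 for bridge against distal (SE 0.36, adjusted p = 0.221 by edgeR). Against iSCs the differences were 0.80 in dSCs (SE 0.36, adjusted p = 0.274 by edgeR) and 0.02 in bSCs (SE 0.35, adjusted p = 0.984 by edgeR), the latter changing sign with another scaling. In the single nerves the direction between regions was the other one, with 3 of 3 day-6 pairs and 7 of 10 pairs in all higher in the bridge (7 of 11 with the uncertain pair), and an average difference of 0.24 (SE 0.30, adjusted p = 1.00 by edgeR). The bSCs of days 4, 6 and 8 held 342 to 859 CPM against 238 to 332 CPM in the 3 iSC libraries that had more genes, and those of day 10 held 218.5, 212 and 262 CPM.

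**Figure D4:**
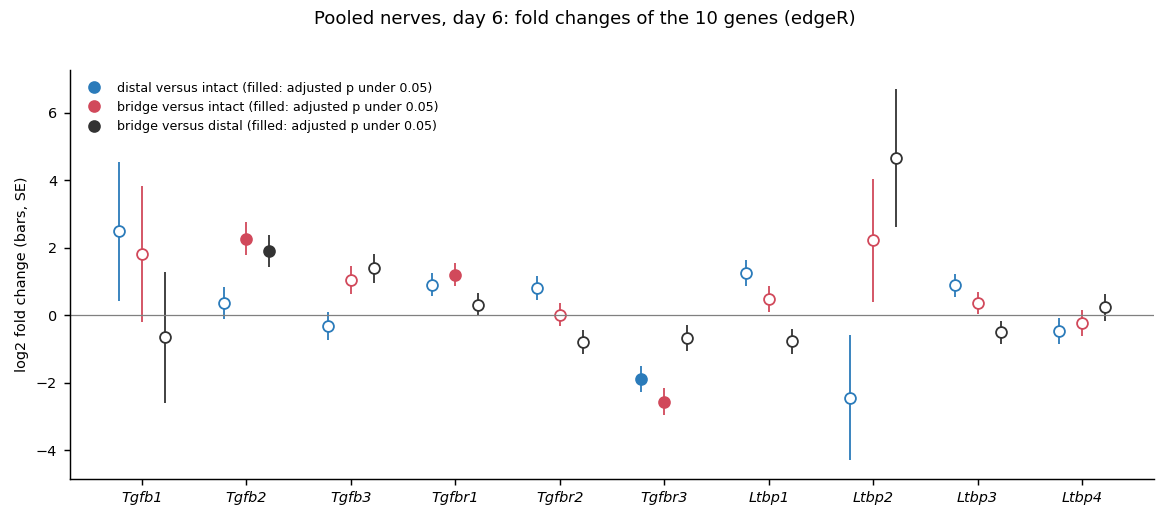
Log2 fold change (y axis) with its SE (line) for each gene (x axis) in the 3 comparisons of the pooled libraries by edgeR, filled where the adjusted p is under 0.05. The filled points are Tgfbr3 in both comparisons with iSCs (-1.88 and -2.56), Tgfb2 in bSCs against iSCs and dSCs (2.26 and 1.90) and Tgfbr1 in bSCs against iSCs (1.20).

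Of the latency proteins none was called in the pooled nerves by edgeR. Ltbp1, which binds all 3 latent ligands, was at 121, 59.9, 169 and 231 CPM in pooled iSCs, at 399, 401, 281 and 312 CPM in dSCs and at 341, 164, 151 and 153 CPM in bSCs. The dSC libraries lay above every iSC library, and the bSC libraries overlapped both groups. Against iSCs the difference in dSCs was 1.26 (SE 0.39, adjusted p = 0.0833 by edgeR). Without iSC pool 5 it was 1.61 with an adjusted p of 0.0309. Over all bridge days of the single nerves its adjusted p was 0.208, and over all distal days 0.408, the lowest of the members in both edgeR tests. Its day-6 bSC libraries were at 221, 1111 and 713 CPM and the day-6 dSC libraries at 284, 258 and 593 CPM, with iSCs at 31.0, 137, 335, 179 and 251 CPM. The day-6 bSC difference from iSCs was 1.87 (SE 0.51, adjusted p = 0.0627 by edgeR).

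Ltbp3, which is needed for secretion of latent TGFβ in some tissues, was at 78.4, 54.2, 100 and 66.9 CPM in pooled iSCs, at 224, 122, 71.9 and 134 CPM in dSCs and at 66.9, 111, 104 and 104 CPM in bSCs. In dSCs Ltbp3 differed from iSCs by 0.88 (SE 0.33, adjusted p = 0.174 by edgeR), and the ranges overlapped. Single-nerve dSCs held 123, 141 and 169 CPM on day 4 and 170, 149 and 214 CPM on day 6, above the 62.4 to 81.3 CPM of the 3 iSC libraries with more genes and the 4.60 and 2.15 CPM of the other two. The log2 fold changes on those days were 1.71 (SE 0.73) and 2.01 (SE 0.73), with adjusted p-values of 0.236 and 0.241 by edgeR. Without the libraries of few genes they were 1.10 (SE 0.42) and 1.35 (SE 0.43), with adjusted p-values of 0.179 and 0.155 by edgeR. On day 6 the bridge was below the distal stump in 3 of 3 pairs, at 73.4 against 170, 97.0 against 149 and 103 against 214 CPM. Over all days it was below in 7 of 10 pairs, or 7 of 11 with the uncertain pair.

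Ltbp4, whose product is also an elastic fibre component, was at 134, 79.8, 266 and 377 CPM in pooled iSCs, and its ranges overlapped between all 3 pooled groups. In the single nerves it was at 1.12, 22.4, 334, 331 and 691 CPM in iSCs. The day-4 libraries were among the lowest of the later days, at 86.7, 101 and 97.2 CPM in dSCs and 42.0, 114 and 21.5 CPM in bSCs. With all libraries the day-4 differences were -1.54 in dSCs (SE 1.04, adjusted p = 0.470 by edgeR) and -2.22 in bSCs (SE 1.08, adjusted p = 0.331 by edgeR). Without the 4 libraries of few genes they were -2.17 (SE 0.59, adjusted p = 0.0415 by edgeR) and -2.87 (SE 0.60, adjusted p = 0.00895 by edgeR). The endothelial and perineurial sums of the day-4 libraries lay below every iSC library, at the values given for Tgfbr3, and their part was not tested. By day 6 the dSCs were at 217, 199 and 421 CPM, and by day 8 at 231, 279 and 329 CPM.

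Ltbp2, which resides in elastic fibres and unlike its relatives does not bind latent TGFβ, was the rarest latency protein. It had no read in dSC pools 1, 2 and 3, where 3 counts would be 0.202 to 0.230 CPM, and 3.58 CPM in dSC pool 5. In bSCs of the same pool numbers it was at 18.4, 24.9, 11.3 and 36.9 CPM, and in iSCs at 0.624, 4.93, 14.1 and 0 CPM. The bSC libraries lay above every dSC library, but the fitted difference was as uncertain as it was large, at 4.67 (SE 2.04, adjusted p = 0.201 by edgeR), and its size depends on the prior count. The same gene ranged in the single nerves from 0 to 51.0 CPM with no separation of the groups, and the bridge was higher in 5 of 10 pairs, or 5 of 11.

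**Figure D5:**
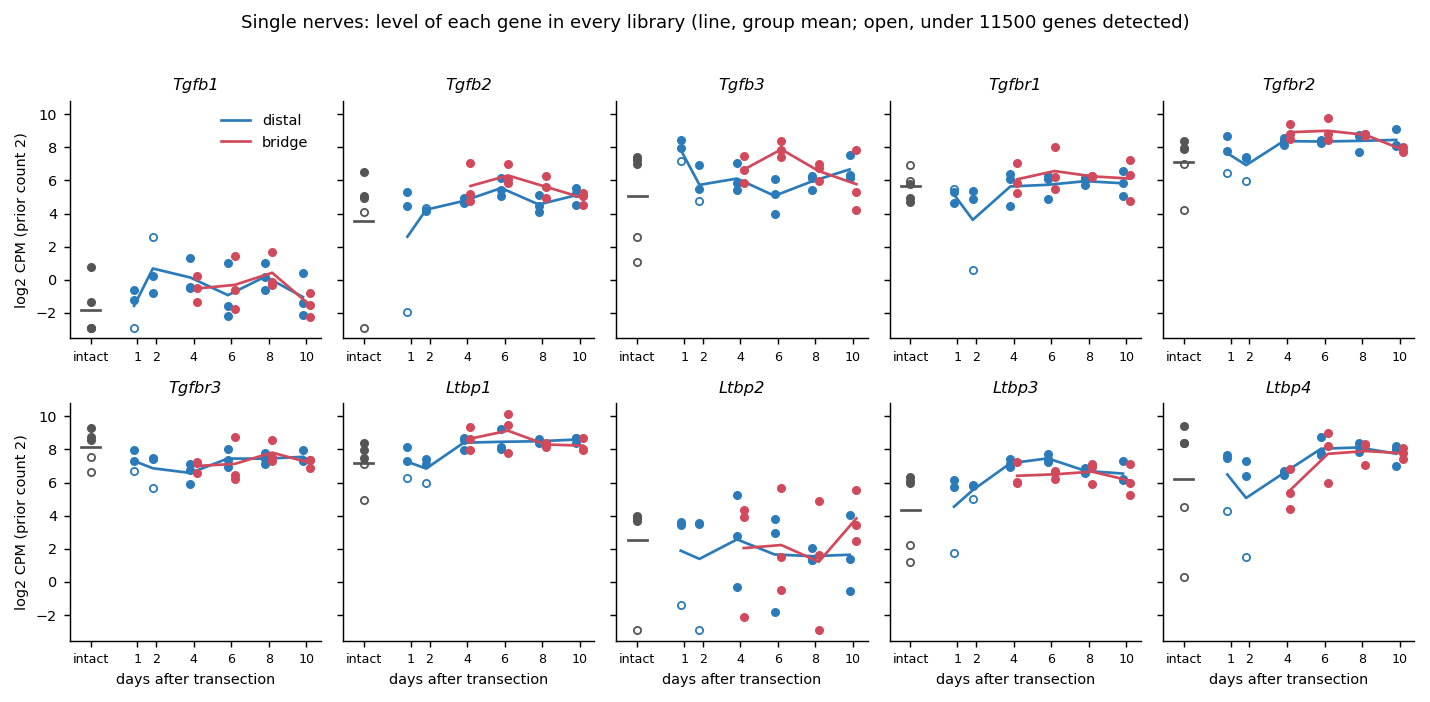
Level of each gene (y axis, log2 CPM with a prior count of 2) in the single-nerve libraries (points) of iSCs, dSCs and bSCs by day after transection (x axis), with lines through the group means. Open points are the 4 libraries with few genes detected, which hold the lowest iSC values of Tgfb3 (1.95 and 5.74 CPM) and Ltbp4 (1.12 and 22.4 CPM), and the day-6 bSCs stand above the dSCs in Tgfb3.

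Counted over the family in the pooled nerves, 1 of 10 members was called in dSCs against iSCs, beside 5.32% of all genes tested. It was lower, beside 2.69% of all genes called lower and 2.63% called higher. In bSCs against iSCs 3 of 10 were called beside 14.7% of all genes, 2 of them higher (7.24% of all genes) and 1 lower (7.46%). In bSCs against dSCs 1 of 10 was called beside 5.43% of all genes, and it was higher (2.31% of all genes, with 3.11% lower). The median log2 fold change of the 10 members was 0.58, 0.76 and -0.14 in these comparisons, where the median of all genes tested was -0.02, -0.16 and -0.07. The comparisons share libraries and are not independent. With the pool number as a block 1, 2 and 0 members were called, among 287, 968 and 236 genes.

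No member was called by edgeR in the 5 single-nerve comparisons fitted over all 35 libraries. Over any distal day against iSCs 0 of 10 were called beside 0.767% of all genes, with 1 member at an unadjusted p under 0.05. Over any bridge day it was 0 of 10 beside 1.39%, with 2 members at an unadjusted p under 0.05. For bridge against distal averaged over days it was 0 of 10 beside 0.103%, and for a bridge-distal difference that varied between days, and for day 10 against day 4 in dSCs, it was 0 of 10 beside 0% in each, with no member at an unadjusted p under 0.05 in these 3. Over all genes these last 2 tests had 488 and 707 genes at an unadjusted p under 0.05, and DESeq2 called 6 and 201. DESeq2 called no member in any of the 5. Day by day against iSCs no member was called either, where 0.18%, 0.445%, 1.73%, 0.554%, 0.303% and 0.354% of all genes were called in dSCs from day 1 to day 10 in the order sampled, and 1.57%, 1.33%, 0.303% and 1.3% in bSCs of days 4, 6, 8 and 10, with 0 to 4 members at an unadjusted p under 0.05. Bridge against distal on days 4, 6, 8 and 10 called 0%, 0.00644%, 0% and 0.0129% of all genes and no member, 1 of which (Tgfb3 on day 6) had an unadjusted p under 0.05. Without the 4 libraries of few genes, 2 of 10 members (Tgfbr3 and Ltbp4) were called in dSCs of day 4, beside 2.81% of all genes, and the same 2 in bSCs of day 4, beside 2.76%.

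The order of the members by level per length also differed between regions. In pooled iSCs the mean levels per kilobase of exon were led by Tgfbr3 (85.2 ± 52.9 CPM per kilobase, SD, n = 4), Ltbp4 (33.1 ± 20.7) and Tgfbr2 (26.4 ± 5.61). In dSCs they were led by Tgfbr2 (46.1 ± 14.9), Ltbp1 (32.6 ± 5.73) and Ltbp3 (26.5 ± 12.2), and in bSCs by Tgfb3 (38.2 ± 17.5), Ltbp4 (28.0 ± 5.87) and Tgfbr2 (26.8 ± 12.2). Neighbours in each order overlapped, except that Tgfb2 stood clear of Ltbp2 in iSCs and Tgfbr1 of Ltbp2 in bSCs. Ltbp2 and Tgfb1 were the lowest 2 in each of the 3 groups. The order depends on the length used. Ltbp1 has 10688 bases in the exon union but 6671 in its longest transcript, while Tgfbr2 has 8088 in both. By the longest transcript, Ltbp1 lies above Tgfbr2 in dSCs and bSCs. Under that length 15 group means of members over both experiments moved by their SD or more, and 125 did not.

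Of 17 listed activators of latent TGFβ 15 were tested, and 3 were called higher and 0 lower in pooled dSCs against iSCs, beside 5.32% of all genes called in either direction. These were Thbs1, whose product thrombospondin activates latent TGFβ (log2 fold change 2.11, SE 0.55, adjusted p = 0.0411 by edgeR), Furin, the protease that cuts the propeptide (1.69, SE 0.31, adjusted p = 0.00701), and the membrane metalloproteinase Mmp14 (1.59, SE 0.43, adjusted p = 0.0464). In bSCs 3 were called higher and 1 lower, 4 of 15 beside 14.7% of all genes. Furin rose there by 2.34 (SE 0.31, adjusted p = 0.000504 by edgeR), from 21.0 to 27.0 CPM in iSCs to 72.8 to 147 CPM in bSCs, and Mmp14 by 1.66 (SE 0.43, adjusted p = 0.0193). Itgb1, an integrin subunit that pairs with αv among others, was 1.31 higher (SE 0.29, adjusted p = 0.00936 by edgeR). Between bSCs and dSCs only Itgb5, another partner of αv, was called, 1 of 15 beside 5.43% of all genes, and it fell by 1.18 (SE 0.29, adjusted p = 0.0317 by edgeR). The median of the list was 0.65, 0.48 and -0.17 in the 3 comparisons in the order given above.

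Of 9 matrix genes that hold latent complexes or ligand, 2 were called higher in dSCs (beside 5.32% of all genes), and 3 higher and 1 lower in bSCs (beside 14.7%), against iSCs. Fbn2, which encodes the microfibril protein fibrillin-2 that anchors latent TGFβ binding proteins, was at 5.93 to 14.7 CPM in iSCs, 135 to 493 CPM in dSCs and 13.0 to 95.7 CPM in bSCs. Its log2 fold change was 5.04 in dSCs (SE 0.61, adjusted p = 0.000666 by edgeR) and 2.38 in bSCs (SE 0.54, adjusted p = 0.0105). Fn1, fibronectin, rose by 2.55 in dSCs (SE 0.54, adjusted p = 0.0172 by edgeR). Emilin1, which limits processing of the TGFβ precursor, rose by 2.59 in bSCs (SE 0.64, adjusted p = 0.0154 by edgeR). Dcn, which encodes the TGFβ-binding proteoglycan decorin and is abundant in fibroblasts, was at 4747 to 22410 CPM in iSCs and 799 to 2955 CPM in bSCs, a fall of 2.93 (SE 0.51, adjusted p = 0.00217 by edgeR). Dcn and Fbn2 were the 2 genes of this list called between bSCs and dSCs, with log2 fold changes of -2.87 and -2.66 in bSCs (adjusted p = 0.00918 and 0.0165 by edgeR). Single nerves had Fbn2 called in all days but day 1 of dSCs and in all 4 days of bSCs, from 2.89 in dSCs of day 2 to 5.31 in bSCs of day 4, and Dcn was lower in the bridge than in the distal stump averaged over days, by 1.15 (SE 0.21, adjusted p = 0.0232 by edgeR) and with the mouse as a block by 1.41 (SE 0.22, adjusted p = 0.0102 by edgeR), or by 1.17 with the uncertain pair (SE 0.20, adjusted p = 0.0292 by edgeR). The medians of these 9 genes in the pooled comparisons were 1.34, 0.81 and -1.11.

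All 7 listed co-receptors and related receptors were tested, with medians of 0.57, 0.35 and -0.51, and 2 were called in dSCs and 3 in bSCs against iSCs, beside the same 5.32% and 14.7%. Nrp2, a neuropilin that can bind TGFβ, fell by 1.34 in dSCs (SE 0.36, adjusted p = 0.0468 by edgeR) and by 2.28 in bSCs (SE 0.37, adjusted p = 0.00142) against iSCs. Nrp1 rose by 1.80 in dSCs (SE 0.46, adjusted p = 0.0370 by edgeR). In bSCs Cd109, a co-receptor that restrains TGFβ signalling, rose by 2.74 (SE 0.73, adjusted p = 0.0233 by edgeR) and Eng, endoglin, by 1.74 (SE 0.49, adjusted p = 0.0294). Eng is also an endothelial gene, and the 8 endothelial markers summed to 136 to 792 CPM in iSCs and 226 to 1598 CPM in bSCs, a part that was not tested. None of the 7 was called between bSCs and dSCs, where edgeR was the test. On no single-nerve day was any of the 7 called against iSCs with all libraries. Without the libraries of few genes Eng (-2.73, adjusted p = 0.0271 by edgeR) and Acvrl1 (-2.21, adjusted p = 0.0203) were called lower in dSCs of day 4. That was 2 of 7 beside 2.81% of all genes. Acvrl1 was also lower in dSCs of day 6 (-2.25, adjusted p = 0.0346 by edgeR). Endothelial sums of day 4 are given with Tgfbr3, and their part was not tested.

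Among 15 intracellular transducers and feedback genes, with medians of 0.40, 0.20 and 0.18, 1 was called in dSCs and 5 in bSCs against iSCs, all higher. That is 1 of 15 beside 5.32% of all genes and 5 of 15 beside 14.7%. Pmepa1, a TGFβ-induced inhibitor of SMAD signalling, rose by 1.76 in dSCs (SE 0.31, adjusted p = 0.00538 by edgeR) and 2.54 in bSCs (SE 0.32, adjusted p = 0.000337). Skil, a SMAD co-repressor, rose by 2.14 (SE 0.41, adjusted p = 0.00389 by edgeR) and Strap, a protein that binds the receptors and SMAD7, by 1.46 (SE 0.23, adjusted p = 0.00124) in bSCs. Against dSCs, bSCs were higher in Strap by 1.29 (SE 0.23, adjusted p = 0.00936 by edgeR) and in Fkbp1a, an inhibitor that sits on TGFBR1, by 1.22 (SE 0.23, adjusted p = 0.0116).

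A last list held 12 genes known as TGFβ targets in other cells, with medians of 0.64, 0.53 and 0.54, and the shares of all genes given above apply to it too. In dSCs Tgfbi rose by 2.06 (SE 0.46, adjusted p = 0.0218 by edgeR), and Cdh2, N-cadherin, fell by 2.14 (SE 0.47, adjusted p = 0.0204). In bSCs only Id3 was called against iSCs, lower by 1.45 (SE 0.38, adjusted p = 0.0207 by edgeR). Between the injured regions Tagln, a smooth muscle actin-binding protein, was 2.38 higher in bSCs (SE 0.58, adjusted p = 0.0320 by edgeR), and Tgfbi was 1.93 lower (SE 0.46, adjusted p = 0.0293). The 7 markers of mural cells of vessels summed to 252 to 439 CPM in pooled bSCs and 175 to 261 CPM in dSCs. The part of mural cells in the Tagln difference was not tested. Tgfbi and Fn1 are also made by macrophages and fibroblasts. The macrophage sum lay higher in every pooled dSC library than in every iSC and bSC library, while the fibroblast sums of the 3 groups overlapped. The part of either cell type was not tested. Timp1, an inhibitor of metalloproteinases, was called higher in single-nerve dSCs of days 1 and 2, by 3.65 and 4.76 (adjusted p = 0.0112 and 0.000408 by edgeR), and in bSCs of days 4 and 10, by 3.10 and 2.61 (adjusted p = 0.0115 and 0.0369). Without the libraries of few genes Timp1 was called in dSCs of day 2 (3.98, SE 0.82, adjusted p = 0.0395 by edgeR) and bSCs of day 4 (3.25, SE 0.76, adjusted p = 0.0190), but in neither dSCs of day 1 (3.17, adjusted p = 0.141) nor bSCs of day 10 (2.69, adjusted p = 0.0505). Other targets were called lower. In dSCs of day 4 these were Id1 (-3.25, adjusted p = 0.0479 by edgeR), Tagln (-2.96, 0.0428) and Id3 (-2.51, 0.0259), 3 of 12 beside 1.73% of all genes. Id3 was also lower in bSCs of day 6 (-2.44, adjusted p = 0.0347 by edgeR). Without the libraries of few genes Tagln stayed called (-2.57, adjusted p = 0.0461 by edgeR). Id1 (adjusted p = 0.0908) and Id3 (0.145 on day 4 and 0.189 on day 6) did not.

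The members varied together in part across the 35 single-nerve libraries, which share cell sorting, depth and days. These include the 4 libraries of few genes, which hold low values of several members, and correlations without them were not computed. Pearson's r of log2 CPM was 0.85 between Tgfbr2 and Ltbp1, 0.79 between Tgfb2 and Tgfbr2 and 0.73 between Tgfb2 and Ltbp1. Among 15518 other genes, those most like Tgfbr2 were Cpt1a (r = 0.914), Col6a1 (0.898) and Col6a2 (0.892), and those most like Ltbp1 were Nid1 (0.891), Col6a1 (0.869) and Cpt1a (0.862). The genes most like Tgfb2 were Gucd1 (0.904), Clmp (0.892) and Foxp1 (0.892), and those most like Tgfb3 were Spsb1 (0.841), Palld (0.802) and Golim4 (0.801). For Tgfbr3 they were Epas1 (0.758), Ablim3 (0.749) and Sparcl1 (0.745), and for Tgfbr1 Lix1l (0.795), Cbl (0.790) and Lman2l (0.784). Ltbp3 was most like Bmp1 (0.920), Lphn1 (0.920) and Dzip1 (0.915), and Ltbp4 most like Col4a2 (0.886), Ldb2 (0.883) and Nub1 (0.878). The 2 rare members had the weakest likeness, with Zdhhc13 (0.688), Zfp456 (0.626) and Neurl3 (0.622) for Tgfb1 and Gltpd1 (0.724), Osbpl9 (0.713) and Rab7 (0.701) for Ltbp2.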

How the data were processed

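The deposited files hold whole-number read counts per gene. According to the methods and the submitters' processing notes, the authors mapped reads with TopHat 2.0.11 to mm9 and counted them with HTSeq. The gene annotation is not given in the sources used here. Lanes of a library were summed and spike-in rows left out. Levels are CPM with TMM scaling, and log2 CPM used a prior count of 2. Exon lengths are unions from GENCODE M1, another annotation than the counting may have used. Tests were edgeR 4.0.16 quasi-likelihood fits over the 12 pooled or 35 single-nerve libraries (R 4.3.3), after filterByExpr, at an adjusted p of 0.05, and were tested on simulated data. DESeq2 1.42.0, other scaling, filters, covariates, blocks and leaving out each library were alternatives, and leaving out the 4 libraries with few genes detected was added after seeing the data. The labels give one animal number to libraries of several regions. The main tests did not use this pairing, which entered only the counts of pairs and the fits with the pool number or mouse as a block. Deviations from the group means correlated by -0.014 on average over 10 pooled pairs (-0.1295 to 0.080), against 0.0045 for pooled libraries of different numbers. Over 10 single-nerve pairs the average was 0.156 (-0.062 to 0.677), against -0.0071 for libraries of different numbers. One bridge library of day 10, whose title and animal number disagree, was left out of the pairs. Fits with it kept, and without each paired mouse, were added after seeing the data. All 10 members, at most 3 called genes of each of 5 lists per comparison, and the 3 genes most like each member are named. The members and lists were chosen with earlier results of these data known. Cultured rat SC libraries were not used here. Replicate counts differed more than lanes, and no 2 libraries were identical. Depth sets the precision of single values, and intervals and floors cover counting error only. Some named items, among them a gene that overlaps a member, are not reported here.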

Additional observations from a re-analysis of the deposited data

Results flagged for a closer look

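Within groups of 4 or 5 libraries, the log2 CPM of each member was screened with Dixon's ratio of the end gap to the range. Of 40 combinations 6 passed its 95% critical value, where chance flags about 1 in 20 of independent, normal values. The combinations share libraries and some values are tied at 0, so that rate is no measure of how many flags to await here. Ltbp2 stood apart in pooled dSC pool 5 (3.58 CPM, the other libraries at 0) and in single-nerve iSC replicate 1 (0 CPM, the others at 12.8 to 15.3 CPM). In dSC pool 5 the tie of the other libraries at 0 fixes the ratio at 1 for any value above 0. Tgfb2 stood apart in single-nerve iSC replicate 0 (0 CPM, the others at 16.7 to 88.9 CPM). Both of these iSC libraries had few genes detected, 10042 in replicate 1 and 10572 in replicate 0. Tgfbr2 was high in pooled iSC pool 5 (281.5 CPM, the others at 184 to 197 CPM). That was the pooled iSC library with the highest macrophage sum (6349 CPM), whose part was not tested. Ltbp1 was high in bSC pool 1 (341 CPM, the others at 151 to 164 CPM), and Ltbp3 was low in the same library (66.9 CPM, the others at 104 to 111 CPM).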

How the results depend on the processing

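No result changed direction past a threshold. Members called in pooled dSCs against iSCs numbered 2 with DESeq2, which added Ltbp1 (1.26, adjusted p = 0.0268), and 1 to 3 when each library was left out in turn, 3 without iSC pool 5. In bSCs against dSCs the count was 2 with DESeq2, which added Tgfb3 (1.36, adjusted p = 0.0257), 0 with pools as a replicate block, 0 in a fit of only the groups compared, and 0 to 1 when each library was left out. In bSCs against iSCs it was 2 with the block and in the fit of only the groups compared, where Tgfbr1 was lost, and 2 to 3 with libraries left out. The single-nerve bridge-distal average gave 1 with the animal as a block, but 0 once the day-10 pair of uncertain animal was kept, where 69 genes were called, and the blocks changed no other call of a member. Other scaling, no filter on low counts, the study's filter and covariates changed no member's call. Over all genes DESeq2 called 1393, 3114 and 1939 in the 3 pooled comparisons against 732, 2022 and 746 by edgeR, and 705, 913 and 583 in the single-nerve tests of distal days, bridge days and the bridge-distal average against 119, 216 and 16. The average called 25 with DESeq2 size factors, 30 without a filter, 8 with the study's filter, 44 with the letter that opens library names as a covariate, 92 without the libraries of few genes and 236 with the block. The fit of only the groups compared called 485 genes in pooled bSCs against dSCs and 4 for day 10 against day 4. With single libraries left out the pooled counts were 310 to 1007, 1318 to 2082 and 325 to 800 genes, and the bridge-distal average 3 to 97. The causes were not tested.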
